A study of Arabidopsis thaliana with 3 samples.

Results

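The 26S proteasome genes of Arabidopsis thaliana were described in 3 RNA-seq libraries of polyadenylated RNA. The 48 genes were taken by identifier from a list of the subunits of the complex, out of 37336 genes in the count table. They comprise 12 genes for the alpha ring and 11 for the beta ring of the 20S core, 10 for the RPT ATPases and 15 for the RPN non-ATPases of the regulatory particle. All 3 libraries came from untreated wild-type Col-0 plants, sampled as whole seedlings at 7 days and grown at 21 °C with 16 h of light and 8 h of dark. They form 1 group with 3 replicates, so there was no comparison between conditions, and the values below describe levels and the spread between libraries. Nothing in the labels tells whether separate plants or cultures stand behind the replicates, so that spread, and every p-value made from it, may be technical.

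The 26S proteasome is the ATP-dependent protease that degrades proteins tagged with ubiquitin in the cytosol and nucleus of eukaryotic cells. Its barrel-shaped 20S core stacks rings of alpha subunits, which gate the entrance, on rings of beta subunits, some of which carry the proteolytic sites. The regulatory particle caps the core: its RPN subunits receive and deubiquitinate the substrate, and its ring of RPT ATPases unfolds it and feeds it into the core. In plants, the degradation of repressors by this machine underlies auxin, gibberellin, jasmonate and light signalling, and many of its subunits are encoded by pairs of duplicate genes.

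Of the 48 genes, 36 form 18 duplicate pairs and 12 are the only gene of their subunit in the list, which makes 30 subunits. Symbols follow the RefSeq annotation of TAIR10.1 where it gives one. Copies without such a symbol were named here by subunit and by their place in the member list: PAB2 (AT1G79210), PBE2 (AT3G26340), RPT4B (AT1G45000), RPT6B (AT5G20000), RPN2A (AT2G32730), RPN2B (AT1G04810), RPN3B (AT1G75990), RPN7 (AT4G24820) and RPN11 (AT5G23540). RPN3A is annotated as EMB2719 (AT1G20200), RPN5A as EMB2107 (AT5G09900), RPN6 as ATS9 (AT1G29150) and RPN8B as MEE34 (AT3G11270).

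The libraries held 32967215, 31761722 and 27069921 counts in replicates 1, 2 and 3. Proteasome genes took 0.246% of the counts in replicate 1, with an exact 95% binomial interval of 0.244 to 0.248%. Their share was 0.282% in replicate 2 (0.280 to 0.284%) and 0.289% in replicate 3 (0.287 to 0.291%), a mean of 0.272 ± 0.0231% (SD, n = 3). These intervals cover counting error only, and the spread between libraries was wider than any of them. Replicate 1 stood apart from the other libraries. The common biological coefficient of variation from edgeR was 0.320 over all libraries and 0.0950 without replicate 1. Of the defining markers of whole seedlings, 3 green tissue genes were detected and summed to 55940, 53940 and 52740 CPM in replicates 1, 2 and 3. The 3 root genes summed to 19.9, 45.2 and 49.5 CPM, of which SHR alone gave 17.4, 21.9 and 27.4. The root hair gene COBL9 was below 1 CPM in replicate 1, with 3 counts. The pollen gene VGD1 was at 0 counts in every library. The seed storage gene CRA1 had 3718, 167 and 804 counts, or 104.5, 5.46 and 30.9 CPM. In whole-seedling RNA, fewer cells of a type and less RNA per cell cannot be told apart.

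The upstream sequences of 4 duplicate pairs are shown first, because the pairs are where the proteasome genes differed most in level. They are not the 4 most unequal pairs: RPT5, RPN5, PBE and RPN3 had larger level ratios than PBB and RPN1. The TGGGC letters, the core of the site II element of Arabidopsis promoters, were found within 250 bases upstream of the annotated start in both copies of 4 pairs, in 1 copy of 8 pairs and in neither copy of 6 pairs. Both copies of PBB, RPN1 and RPN8 hold them, and PAF holds them in its lower copy only. Pairs with the letters in both copies are thus more common among those shown than among all pairs. PAF had the largest level ratio when counts were divided by all exon bases. It did not when the same counts were divided by unshared exon bases only. The 125 bases before each annotated start are given 5′ to 3′ on the gene's own strand, from the RefSeq genome TAIR10.1. Capitals mark TGGGC and its reverse complement GCCCA. In RPN1A a TGGGC and a GCCCA overlap.
PBB1, chr3:10152333-10152457, plus strand: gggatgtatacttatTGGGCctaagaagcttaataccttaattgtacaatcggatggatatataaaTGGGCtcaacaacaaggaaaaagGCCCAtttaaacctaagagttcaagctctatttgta
PBB2, chr5:16250926-16251050, minus strand: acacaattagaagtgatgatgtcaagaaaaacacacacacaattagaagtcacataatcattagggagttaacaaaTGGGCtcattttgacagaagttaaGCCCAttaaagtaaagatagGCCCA
RPN1A, chr2:8858837-8858961, plus strand: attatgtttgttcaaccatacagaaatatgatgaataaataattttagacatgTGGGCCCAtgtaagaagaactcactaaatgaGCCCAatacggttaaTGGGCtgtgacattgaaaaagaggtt
RPN1B, chr4:14072583-14072707, minus strand: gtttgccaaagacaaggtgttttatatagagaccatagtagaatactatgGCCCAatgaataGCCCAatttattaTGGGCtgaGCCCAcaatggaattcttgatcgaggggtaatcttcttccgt
RPN8A, chr5:1735600-1735724, plus strand: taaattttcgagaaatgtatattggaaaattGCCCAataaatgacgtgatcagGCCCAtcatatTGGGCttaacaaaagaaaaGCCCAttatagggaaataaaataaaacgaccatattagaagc
RPN8B, chr3:3528676-3528800, plus strand: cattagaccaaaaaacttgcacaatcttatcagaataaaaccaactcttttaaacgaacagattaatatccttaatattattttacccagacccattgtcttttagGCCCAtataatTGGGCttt
PAF1, chr5:17161157-17161281, minus strand: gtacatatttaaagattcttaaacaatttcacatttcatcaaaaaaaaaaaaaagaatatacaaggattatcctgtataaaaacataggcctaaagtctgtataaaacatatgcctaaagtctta
PAF2, chr1:17318994-17319118, plus strand: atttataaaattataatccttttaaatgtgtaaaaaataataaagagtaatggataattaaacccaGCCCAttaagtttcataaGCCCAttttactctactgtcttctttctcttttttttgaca

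The printed stretches hold 3 matches in PBB1 and 3 in PBB2, 4 each in RPN1A, RPN1B and RPN8A, 2 in RPN8B and 2 in PAF2. PAF1 has 0 matches. None of these 8 stretches includes an annotated exon of a neighbouring gene.

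All 48 proteasome genes were detected, which meant reaching 1 CPM in every replicate. CPM are counts scaled to a common library size, here by TMM, the trimmed mean of M-values. Of all 37336 genes, 17050 (45.7%) were detected. Member counts ranged from 88, for PAF2 in replicate 1, to 3866, for RPN2A in replicate 2. Levels of different genes were compared as CPM per kb of merged exons. The median proteasome gene stood at 34.3 CPM per kb, or 5.10 ± 0.21 (SD, n = 3) as log2(CPM per kb + 0.1). The median over the 17050 detected genes was 9.02 CPM per kb, or 3.19 ± 0.03 on that log2 scale. A total of 45 of the 48 lay above the detected-gene median, and the exceptions were PAF2, RPN5B and RPN8B.

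Other large complexes gave the following medians. The CCT chaperonin, which folds actin and tubulin, had 52.8 CPM per kb over 9 genes, and the translation initiation factor eIF3 had 38.8 over 17. The COP9 signalosome, which resembles the lid of the regulatory particle and removes NEDD8 from cullin ligases, had 11.5 over 10 genes. Between genes, the SD of the log2 level was 1.0 for the proteasome, 0.46 for CCT and 1.05 for the COP9 signalosome. It was 2.4 for eIF3 and 1.95 for all detected genes. The eIF3 SD is not like the others, because only 16 of the 17 eIF3 genes were detected. The undetected gene had 0, 1 and 3 counts, and its log2 level of -3.07 depends mostly on the added 0.1.

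**Figure D1:**
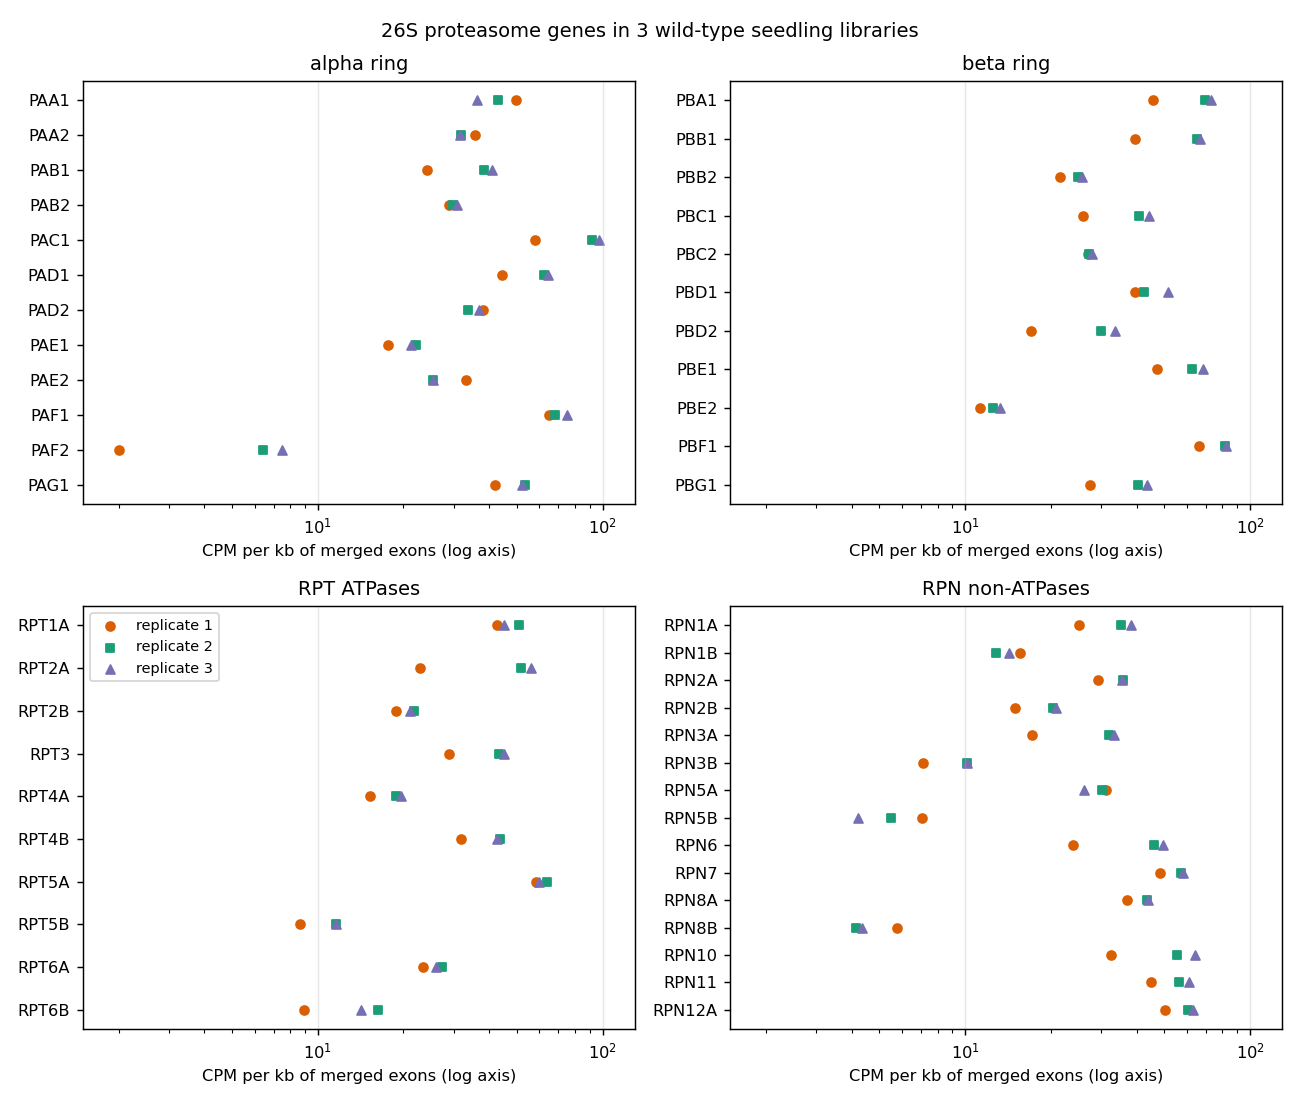
Level of each of the 48 proteasome genes in CPM per kb of merged exons (horizontal log axis), in panels by ring or sub-complex, with 1 symbol for each replicate. The level ran from 4.75 CPM per kb for RPN8B to 82.3 for PAC1, and in most genes the circle of replicate 1 lies to the left of the other symbols.

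In the alpha ring, PAC1 (AT3G22110) had the highest mean level of all proteasome genes, with 57.95, 91.6 and 97.4 CPM per kb in replicates 1, 2 and 3, a mean of 82.3 ± 21.3 (SD, n = 3). It was the highest in replicates 2 and 3, while in replicate 1 PBF1, PAF1 and RPT5A lay above it. It is the only gene of its subunit among the 48. PAF2 (AT1G47250) was the lowest alpha gene, with 2.00, 6.42 and 7.51 CPM per kb, a mean of 5.31 ± 2.92. Replicate 1 was the low library in both genes. PAF2 lies at chr1:17319119-17321202 and shares 65.1% of its 1237 exon bases with GAMMA CA2 (AT1G47260), a mitochondrial gamma carbonic anhydrase gene on the opposite strand. Whether the counting used strand is unknown from the sources used here, so the PAF2 count is uncertain. Divided by the 432 bases that PAF2 does not share, its count gave 5.73, 18.4 and 21.5 CPM per kb, a mean of 15.2 ± 8.36.

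The remaining alpha genes lay between 20.3 CPM per kb for PAE1 and 69.4 for PAF1. PAG1, also the only gene of its subunit in the list, stood at 49.1 ± 6.27 CPM per kb.

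The beta ring carries the active sites: PBA1 encodes the caspase-like subunit, PBB1 and PBB2 the trypsin-like subunit, and PBE1 and PBE2 the chymotrypsin-like subunit. PBF1 (AT3G60820), a beta subunit without a proteolytic site, was the highest beta gene at 66.4, 81.5 and 82.3 CPM per kb, a mean of 76.7 ± 8.92. PBA1 (AT4G31300) had 45.6, 69.8 and 72.8 CPM per kb, a mean of 62.7 ± 14.9. PBF1 lay above PBA1 in each library, although the ranges of the genes over the libraries overlapped. PBE2 was the lowest beta gene at 11.3, 12.5 and 13.3 CPM per kb, a mean of 12.4 ± 0.986, and its highest library lay below the lowest library of every other beta gene.

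Among the RPT ATPases, RPT5A (AT3G05530) was highest at 58.3, 63.9 and 59.9 CPM per kb, a mean of 60.7 ± 2.90. Its copy RPT5B (AT1G09100) was lowest at 8.69, 11.6 and 11.6, a mean of 10.6 ± 1.67. The highest and the lowest ATPase gene thus encode copies of the same subunit. RPT2A (AT4G29040), which is known for its part in maintaining the root meristem, had 22.9, 51.6 and 55.9 CPM per kb, a mean of 43.4 ± 17.95, the largest SD of the ATPase genes. RPT1A and RPT3, each the only gene of its subunit among the 48, stood at 46.2 ± 4.31 and 39.1 ± 8.81.

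Among the RPN genes, RPN12A (AT1G64520) had the highest mean at 50.4, 60.5 and 63.2 CPM per kb, averaging 58.0 ± 6.77, though RPN10 lay above it in replicate 3. RPN8B had the lowest mean of all 48 genes, 4.75 ± 0.896, from 5.78, 4.13 and 4.35. It was the lowest in replicate 2, whereas PAF2 was lowest in replicate 1 and RPN5B in replicate 3. RPN11 (AT5G23540), the metalloprotease that cuts ubiquitin chains from substrates, had 54.3 ± 8.37 CPM per kb, and RPN10 (AT4G38630), a ubiquitin receptor, had 50.7 ± 16.4. RPN7, a scaffold subunit of the lid, had 54.5 ± 5.31 (SD, n = 3). The means of RPN7, RPN10, RPN11 and RPN12A differed by less than the SD of RPN10.

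The copies of 9 of the 18 duplicate pairs differed by over 2-fold on the mean log2 ratio over the libraries. The fold given for a pair is that mean turned back into a ratio. In each of these 9 the same copy was higher in all 3 libraries. These were 3 of 9 pairs in the core and 6 of 9 in the regulatory particle. Each difference was put to an exact permutation test, two-sided, that flips the sign of the log2 ratio in each library. With 3 libraries its smallest p is 0.25, and after Benjamini-Hochberg adjustment over the 18 pairs it is 0.281, so no pair could pass 0.05. For these 9 pairs the levels in every library are therefore given, with the mean log2 ratio and its SD.

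PAF1 (AT5G42790) had 64.9, 68.1 and 75.0 CPM per kb against 2.00, 6.42 and 7.51 for PAF2, a ratio of 14.7-fold, or 3.88 ± 0.93 in log2 (SD, n = 3). The ranges of the copies were far apart, but the ratio depends on the exon length used for PAF2. With the same counts divided by the unshared exon bases only, it was 2.39 in log2. Reads over those bases alone were not counted. With all exon bases but without replicate 1, the log2 ratio was 3.34. RPN8A (AT5G05780) had 37.0, 43.35 and 43.8 CPM per kb against 5.78, 4.13 and 4.35 for RPN8B, 8.62-fold higher, with a log2 ratio of 3.11 ± 0.39. RPN8 forms a heterodimer with the deubiquitinase RPN11. In replicate 1 RPN8A was at its lowest and RPN8B at its highest.

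RPT5A exceeded RPT5B 5.72-fold, with a log2 ratio of 2.52 ± 0.19. RPN5A stood at 31.2, 30.1 and 26.2 CPM per kb against 7.06, 5.51 and 4.20 for RPN5B (AT5G64760), 5.24-fold higher, a log2 ratio of 2.39 ± 0.25. RPN5 is a lid subunit with a PCI domain, and both of its copies were highest in replicate 1, unlike most proteasome genes. PBE1 (AT1G13060) had 47.1, 62.8 and 68.5 CPM per kb against 11.3, 12.5 and 13.3 for PBE2, 4.73-fold higher, with a log2 ratio of 2.24 ± 0.17. The chymotrypsin-like subunit thus drew 82.6 ± 1.72% of its summed level from PBE1.

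RPN3A had 17.2, 32.05 and 33.4 CPM per kb against 7.13, 10.2 and 10.2 for RPN3B, 2.90-fold higher, a log2 ratio of 1.54 ± 0.24. RPN3 is a lid subunit with a PCI domain. PBB1 (AT3G27430) had 39.4, 65.1 and 66.7 CPM per kb against 21.5, 24.9 and 25.6 for PBB2 (AT5G40580), 2.31-fold higher, a log2 ratio of 1.21 ± 0.29. RPN1A (AT2G20580), a docking site for ubiquitin receptors, had 25.1, 35.4 and 38.2 CPM per kb against 15.6, 12.8 and 14.3 for RPN1B (AT4G28470), 2.27-fold higher, a log2 ratio of 1.18 ± 0.44. In replicate 1 the PBB and RPN1 ratios were under 2-fold, at 0.87 and 0.68 in log2.

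The copy listed second was higher on average in RPT4 and, by under 2-fold, in PAE. RPT4B had 31.8, 43.65 and 42.45 CPM per kb against 15.3, 18.9 and 19.6 for RPT4A (AT5G43010). It was 2.17-fold higher, and the log2 ratio of RPT4A to RPT4B was -1.12 ± 0.08. The SD of this ratio was the smallest of the 18 pairs.

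The pairs just under the 2-fold threshold were RPT6, at 1.99-fold, and RPT2, at 1.96-fold or a log2 ratio of 0.97 ± 0.61. As a ratio of mean levels, 43.4 CPM per kb for RPT2A against 20.55 for RPT2B, RPT2 was over 2-fold. RPT6A (AT5G19990, chr5:6751798-6755315) and RPT6B (chr5:6756633-6759800) lie in tandem with 1317 bases between them. Their coding sequences were 94.4% identical, the most of any pair, and 3.82% and 5.26% of the 50-base windows of their exons occur elsewhere in the genome, so reads could be split between them. A total of 45 of the 48 genes had no such repeated window. The least alike pair was RPN3, at 80.3% identity. The RPN8 copies, among the most unequal in level whether all or only unshared exon bases were the divisor, had 87.9% identity.

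In PAB and PBC the higher copy was not the same in each library. PAB1 exceeded PAB2 in replicates 2 and 3, by 0.36 and 0.40 in log2, but was below it by 0.26 in replicate 1. PBC1 to PBC2 gave -0.06, 0.58 and 0.66. In 11 of the 18 pairs the log2 ratio in replicate 1 was over 0.5 away from the mean of the others, whereas between replicates 2 and 3 the ratios differed by at most 0.24.

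**Figure D2:**
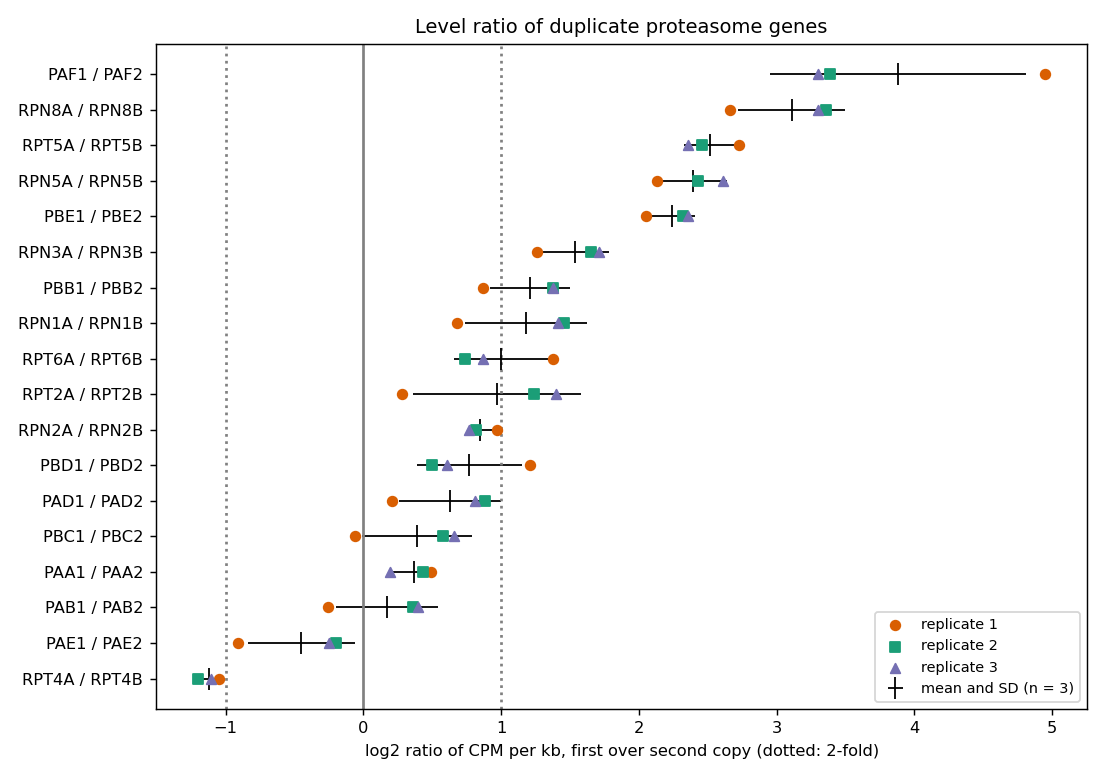
Log2 ratio of CPM per kb of the first to the second copy in the 18 duplicate pairs, with 1 symbol for each replicate and the mean and SD over 3 libraries. Dotted lines mark 2-fold; 9 pairs lie beyond them on average, from PBB, RPN1 and RPT4 to PAF, and replicate 1 is often off the other symbols.

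With the copies summed, the subunits lay closer together than the single genes. All 30 listed subunits lay within 2-fold of their median. The median subunit stood at 55.95 ± 8.51 CPM per kb over the libraries (SD, n = 3). The lowest of the 30 on average was RPN5, with 38.3, 35.6 and 30.4 CPM per kb, a mean of 34.8 ± 4.0. The highest of the 30 on average was PAD, an alpha subunit, with 82.4, 95.7 and 101.3, a mean of 93.1 ± 9.72. The span was 2.68-fold between subunits against 17.3-fold between the 48 genes, and the SD of the log2 level was 0.40 against 1.0. Part of this narrowing is built in, because a sum leaves no separate value for the lower copy. The higher copies of the 18 pairs alone ran from 25.6 to 69.35 CPM per kb.

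These sums cover the listed copies only, and the 2-fold range holds for the listed subunits only. RPN13, a subunit outside the list, stood at 13.95 CPM per kb, below every listed subunit. Possible further copies outside the list were AT1G53780 for RPT1, at 20.25 CPM per kb, RPN12B for RPN12, at 0.434, and AT4G15165 for PAC, at 1.83. RefSeq gives AT4G15165 only a general hydrolase family and AT1G53780 no subunit number. The 12 subunits with a single listed gene had a median of 53.2 ± 8.28 CPM per kb. The summed copies of the 18 duplicated subunits had 63.2 ± 9.90, while the higher copy alone had 39.4 ± 6.04 and the lower copy 18.45 ± 2.60 (SD, n = 3 each). The ranges of 1 SD around the single-gene and the summed median overlapped. That overlap ignores that both medians came from the same 3 libraries, so it does not show them to be alike. In the RPN8 pair, for example, the sum of 46.1 ± 2.94 lay below the single-gene median although RPN8B had the lowest mean of the 48 genes.

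By class, the summed subunits had medians of 68.0 ± 8.85 CPM per kb in the alpha ring, 70.2 ± 12.9 in the beta ring, 50.9 ± 7.68 in the ATPase ring and 49.4 ± 6.76 among the non-ATPases. Within classes the span was 1.93-fold for alpha, 2.18-fold for beta, 1.84-fold for RPT and 1.67-fold for RPN.

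**Figure D3:**
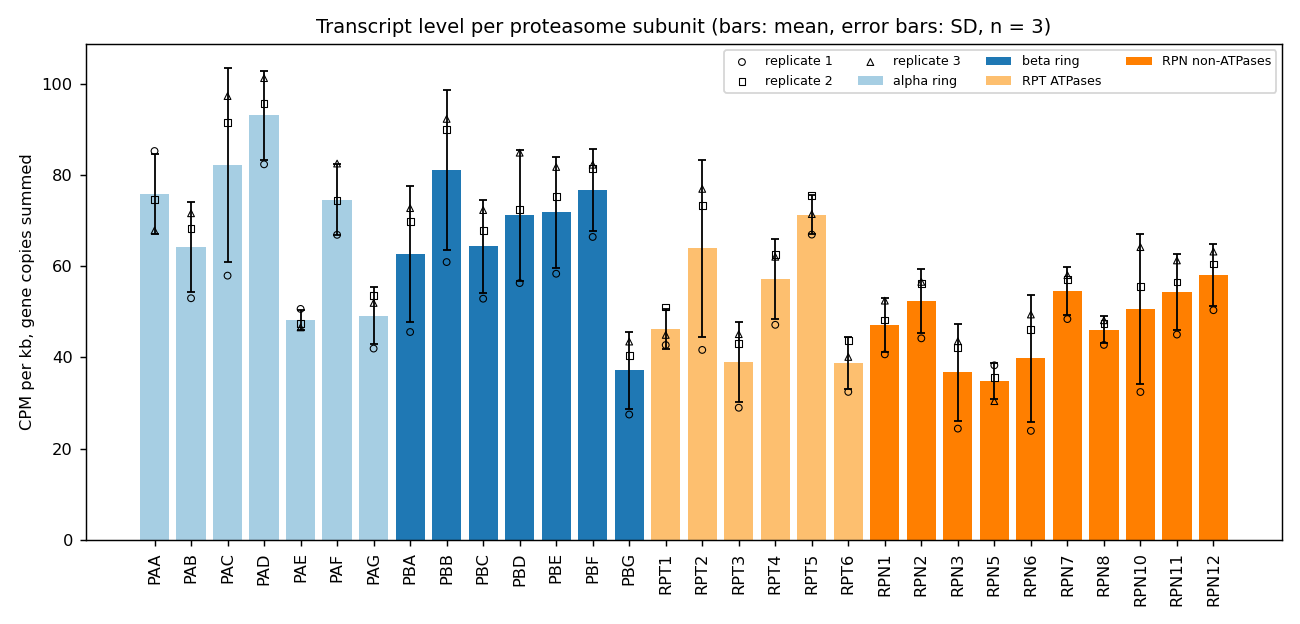
Level of each of the 30 subunits in CPM per kb with the copies summed (bars are means, error bars SD, n = 3, symbols the replicates), coloured by class. The bars run from 34.8 for RPN5 to 93.1 for PAD, and most alpha and beta bars stand above most RPT and RPN bars.

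On single genes, the median log2 level of the 23 core genes exceeded that of the RPT genes by 0.61, 0.24 and 0.30 in replicates 1, 2 and 3, a mean of 0.38 ± 0.20 (SD, n = 3). It exceeded that of the RPN genes by 0.50, 0.19 and 0.19, a mean of 0.30 ± 0.18. The core was higher in every library, and the exact sign-flip permutation p was 0.25, the smallest possible, for each. The direction depends on dividing by exon length: as CPM without length, the core minus RPT difference was -0.41 and the core minus RPN difference was -0.54. RPT and RPN genes differed by -0.09 ± 0.04.

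Variation between the libraries was read against the trend of all genes. The edgeR goodness-of-fit test against the trended dispersion called 0 of 48 at a Benjamini-Hochberg adjusted p under 0.05, where 384 of 19016 tested genes (2.02%) were called, so a count of 0 is near the background. Unadjusted p-values under 0.05 were found for RPT2A and PAF2, 2 of the 48, and for 1416 (7.45%) of all tested genes. For RPT2A the edgeR p was 0.0265, adjusted to 0.469 over all tested genes. For PAF2 the edgeR p was 0.0458, adjusted to 0.639. DESeq2 marked 23 of the 19016 genes as dispersion outliers, and 0 of the 48 members. With so small a share over all genes, a count of 0 says nothing about the members. The median SD of log2(CPM + 0.5) over the libraries was 0.229 for proteasome genes and 0.247 for detected genes. Without replicate 1 it was 0.051 and 0.092.

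Against counting error alone, 45 of 48 varied, by a Poisson chi-square test with adjustment over all genes, and so did 78.5% of all tested genes. Without replicate 1, 16 of 48 did, against 24.7% of genes.

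The direction of this variation was shared by most of the genes. The median log2 difference of proteasome genes was -0.31 for replicate 1 minus replicate 2, -0.34 for replicate 1 minus replicate 3 and -0.05 for replicate 2 minus replicate 3. Over detected genes it was 0.02, 0.02 and 0.01. A total of 40 of 48 proteasome genes were lowest in replicate 1, while 43.3% of detected genes were. They were 11 of 11 beta genes, 10 of 10 RPT genes, 8 of 12 alpha genes and 11 of 15 RPN genes.

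The other 8 genes were highest in replicate 1, as were 46.1% of detected genes: PAA1, PAA2, PAD2, PAE2, RPN1B, RPN5A, RPN5B and RPN8B. All 8 belong to duplicate pairs, as do all but 12 of the 48 genes, and in PAA and RPN5 both copies were highest there. Library scaling changed the size. With total counts in place of TMM, which shifts the median of detected genes by 0.16, 32 of 48 were lowest in replicate 1 against 32.6% of detected genes. The medians were then -0.15 and -0.18.

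Differences over 2-fold were few. RPT2A and PAF2 were over 2-fold lower in replicate 1 than in replicate 2, where 11.2% of detected genes differed by as much in either direction. RPT2A, PAF2 and RPN6 were over 2-fold lower in replicate 1 than in replicate 3 (13.9% of detected genes). RPN6, a PCI-domain lid subunit that clamps the core to the regulatory particle, had 51.7, 99.8 and 106.9 CPM. Between replicates 2 and 3 no proteasome gene and 0.194% of detected genes differed by over 2-fold, and the members' differences lay between -0.27 and 0.37.

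Tissue markers differed between the libraries too. PIN2, an auxin carrier of the root, had 86, 625 and 508 counts, the root hair gene COBL9 had 3, 87 and 68, and SHR, a regulator of root radial patterning, had 619, 670 and 714, so all 3 root markers were lowest in replicate 1. The seed storage gene CRA1 went the other way and was highest in replicate 1, at 104.5 CPM against 5.46 and 30.9. The part of these differences in those of the proteasome genes was not tested. Of the other complexes, 9 of 9 CCT genes, 9 of 17 eIF3 genes and 4 of 10 COP9 signalosome genes were lowest in replicate 1.

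**Figure D4:**
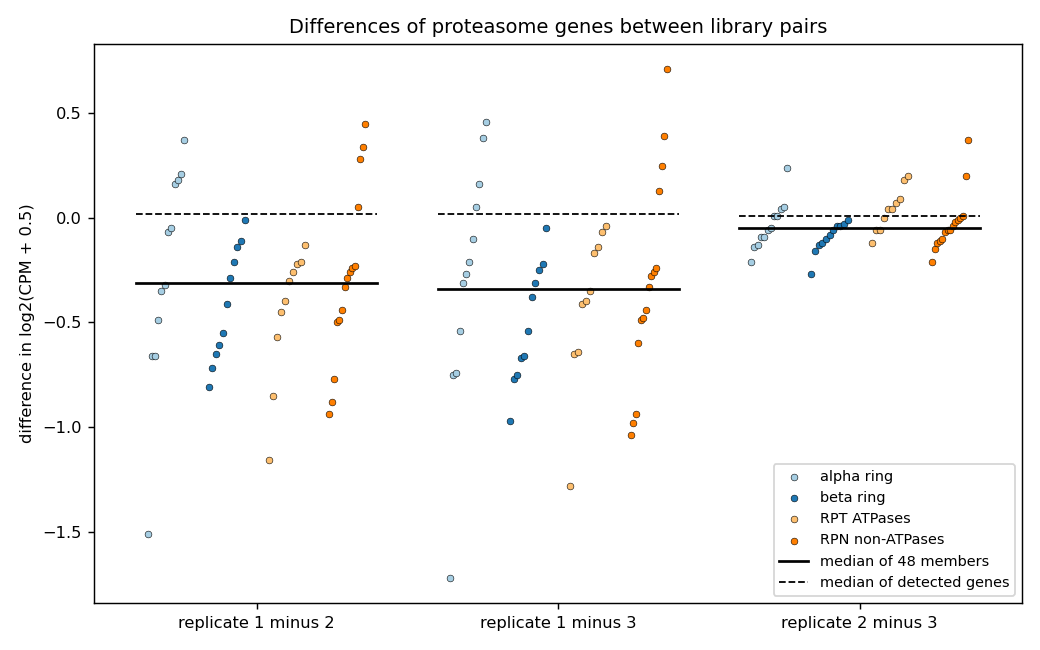
Differences of log2(CPM + 0.5) between pairs of libraries for the 48 proteasome genes, each point a gene coloured by class. Solid lines mark the median of the 48 (-0.31, -0.34 and -0.05) and dashed lines that of detected genes; all beta and RPT points lie below 0 in both comparisons with replicate 1.

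The upstream letters were also counted over all genes. On both strands within 250 bases upstream, TGGGC occurred in 23 of 48 proteasome genes (47.9%), in 27.0% of 16739 detected protein-coding genes and in 22.7% of all 27431. By class it occurred in 7 of 11 beta, 8 of 15 RPN, 5 of 12 alpha and 3 of 10 RPT genes. It occurred in 66.7% of CCT genes, in 41.2% of eIF3 genes and in 2 of 10 COP9 signalosome genes. TGGGCC, which contains TGGGC, occurred in 37.5% of proteasome genes and 17.75% of detected genes. AAACCCTA, the telo box, occurred in 6.25% against 3.55%, and TATAAA in 47.9% against 45.6%.

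Of the 53 TGGGC matches in proteasome genes, 50 began within 125 bases of the annotated start. The median log2 level was 5.15 ± 0.43 for the 23 genes with the letters and 5.10 ± 0.11 for the 25 without them. The median difference of replicate 1 minus 2 was -0.44 with them and -0.29 without. Genes with and without the letters were lowest in replicate 1 in 19 of 23 and 21 of 25 cases.

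Of 27 genes that serve or assemble the proteasome, 25 were detected. The edgeR goodness-of-fit test called 0 of the 25 tested at an adjusted p under 0.05, where 2.02% of all tested genes were called. At an unadjusted p under 0.05 it was also 0, against 7.45%. Counts of 0 among so few genes are near these shares. The median of the 27 genes was 15.4 CPM per kb. CDC48A (AT3G09840), the segregase that extracts ubiquitinated proteins, was highest at 108.7, 150.4 and 159.3 CPM per kb, a mean of 139.5 ± 27.0. It lay above every proteasome gene in every library.

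Of the shuttle receptors, which carry ubiquitinated proteins to the proteasome, RAD23D had 70.1 ± 23.0 CPM per kb and RAD23C had 42.9 ± 6.29. Of the ubiquitin-activating enzymes, UBA1 had 41.3 ± 12.6 and UBA2 7.90 ± 0.992. The deubiquitinases UBP6, UBP7, UCH1 and UCH2 lay between 5.05 and 18.55. The alternative cap PA200 stood at 5.89 ± 0.771, below all but 3 of the 48 subunit genes.

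The transcription factors that activate proteasome genes in Arabidopsis under proteasome stress differed in level. NAC53 (AT3G10500) had 4.22, 5.12 and 4.42 CPM per kb, a mean of 4.59 ± 0.470, and NAC78 (AT5G04410, annotated as NAC2) had 25.4, 31.5 and 31.2, a mean of 29.4 ± 3.47. Their ranges did not overlap.

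Some genes annotated as subunits but not among the 48 were also present. AT1G53780, annotated as an ATPase of the 26S regulatory complex, had 30.05, 14.9 and 15.8 CPM per kb, a mean of 20.25 ± 8.49. It was highest in replicate 1, while the ATPase gene RPT1A was lowest there, with 42.7, 51.05 and 44.9. RPN13, a ubiquitin receptor, had 13.95 ± 0.483. The PCI-domain genes AT5G45620 and AT4G19006 had 16.9 ± 0.529 and 12.5 ± 1.96. RPN12B (AT5G42040) was not detected, with 19, 13 and 8 counts or 0.434 ± 0.117 CPM per kb, against 58.0 for RPN12A. AT5G38650, annotated as a proteasome maturation factor UMP1, is listed at 0 in every library and shares 93.4% of its exon bases with APE1 on the same strand, so its count is uncertain. The other UMP1 gene, AT1G67250, stood at 38.4 ± 5.78.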

How the data were processed

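Polyadenylated RNA of 3 wild-type samples was measured as counts per gene, deposited as 1 table with a column for each library. The submitters' processing notes list the TAIR10 build, featureCounts 1.6.1, HISAT2 2.1.0 and DESeq2 without saying how each was used. Which annotation, strand setting and treatment of shared reads the authors used is not given in the sources. Of 37336 identifiers, 37051 matched RefSeq TAIR10.1, which gave symbols, coordinates and merged exon lengths.

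CPM used TMM (edgeR 4.0.16, R 4.3.3), with factors 1.079, 0.9631 and 0.9624. Pseudocounts were 0.1 on CPM per kb and 0.5 on CPM. The goodness-of-fit test used an intercept-only fit after filterByExpr. It was also run on simulated counts, but the size of change it can detect is not given here. Alternatives (DESeq2 1.42.0 among them) are given in the closing section. Values in every library were given for pairs over 2-fold apart, the highest and lowest gene of each class and any gene called. The members and lists were chosen with earlier results of these data known. Of the listed eIF3 genes, 2 with another annotated product were left out. Sequences were matched with Biopython 1.88 under Python 3.11.15.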

Additional observations from a re-analysis of the deposited data

How the results depend on the processing

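Of 184 alternative values, 177 kept their direction and their side of a test's threshold of 0.05 or, with no test, moved by less than the spread between replicates (counts: by less than 1.5 times). This does not refer to the 2-fold limit: RPT2 passed it without replicate 1, at a log2 ratio of 1.32, and RPT6 without replicates 2 and 3, at 1.12 and 1.06, and without division by length, at 1.44. Without division by exon length, the median level was 5.86, the core minus RPT difference was -0.41, core minus RPN was -0.54 and PAA1 to PAA2 was -0.003, since the log2 values then include gene length. The share of counts was 0.390% without the 100 most abundant genes, because the total is smaller. The Poisson chi-square test, which leaves out biological spread, called 45 members, against 78.5% of all tested genes. Without replicate 1 (added after seeing the data) it called 16 members, against 24.7% of genes. The edgeR goodness-of-fit test called 0 members under every alternative. Leaving out each replicate gave a median level of 5.04 to 5.22, core minus RPT of 0.27 to 0.46 and core minus RPN of 0.19 to 0.35, and 10 pairs over 2-fold in each case against 9. The 177 include some large moves. The median SD of the members over libraries, itself a spread between replicates, fell from 0.229 to 0.051 without replicate 1. With total counts, the median differences of replicate 1 minus 2 and minus 3 moved from -0.31 and -0.34 to -0.15 and -0.18. No paired analysis was possible because there is 1 group. The 3 libraries limit every sign-flip test to a p of 0.25 or more. Those tests could not cross 0.05, so among the 177 their values were judged by direction only.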
